A study of Mus musculus with 28 samples.

Results

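The question addressed here was how far the liver response to a reduced dose of nitisinone depended on p53 in mice that lack fumarylacetoacetate hydrolase. It was asked as a difference of differences: reduced minus full dose in Fah-/- p53-/- mice, minus reduced minus full dose in Fah-/- mice. The comparison used 16 of the 28 samples of the series, 4 arrays in each of 4 groups, chosen by genotype and dose alone, and was computed for all 20300 features that were measured above background. A positive value means that the response was more positive without p53, and a negative value that it was more negative without p53.

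All mice, the controls included, were Fah-/-. This enzyme completes the breakdown of tyrosine, and its loss is the cause of hereditary tyrosinemia type I. Nitisinone (NTBC) blocks an earlier step and so prevents the toxic metabolites from forming. The groups were Fah-/- mice on full NTBC, Fah-/- mice on reduced NTBC, Fah-/- p53-/- mice on full NTBC and Fah-/- p53-/- mice on reduced NTBC. Drinking water carried the drug at 7.5 mg/L in the full-dose groups. For the lower dose the sample labels say 25% of that, while the design and treatment notes say 2.5%, given over 3 months; the text speaks only of reduced NTBC. The labels give neither age nor sex, and they do not say whether each array held a separate animal, so the p-values measure the spread between these samples, which may be technical. The male transcript Ddx3y was well above background on 16 of the 16 arrays and the female transcript Xist on 0 of 16.

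The protein p53 is a transcription factor that damaged cells stabilise. It switches on genes that halt the cell cycle, start apoptosis and repair DNA, together with its own inhibitor Mdm2. Tyrosine metabolites that build up without the hydrolase are reactive electrophiles, and in the liver such compounds also activate the oxidant sensor NRF2.

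Levels below are log2 of the processed signal relative to the 75th percentile of the array. Of the 2 probes for Trp53, the gene of p53, one was lower without p53 at both doses, by a log2 difference of -1.39 (SE 0.17) on full and -1.96 (SE 0.17) on reduced NTBC; limma's adjusted p over probes was 3.44e-06 and 1.01e-07. The other, brighter probe did not pass the test at either dose (adjusted p = 0.373 and 0.223). No source used here says where either probe lies relative to the deleted part. The single measured probe for Fah, which every group carries as a mutant, read -0.20 ± 0.14 and -0.065 ± 0.058 in Fah-/- mice and -0.60 ± 0.51 and -1.0 ± 0.31 in Fah-/- p53-/- mice (SD, n = 4) and was well above background on all 16 arrays; on reduced NTBC it was lower without p53, with an adjusted p over probes of 0.00402. Each of the 4 groups filled a slide of its own. Scan runs were told apart by the calendar year of the scan alone. Both groups on reduced NTBC fell in one run and both on full NTBC in another. Group and slide cannot be told apart, nor can dose and scan run. The share of probes well above background was 66.2 to 68.5% on the arrays of Fah-/- p53-/- mice on reduced NTBC and 54.8 to 62% on the other 12.

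Reduced NTBC changed a large share of features in each genotype, and a smaller share responded differently without p53. Over the 20300 features the log2 responses of the 2 genotypes correlated with r = 0.593 and rho = 0.56, a description across genes in which both responses also span the same pair of scan runs. The difference of differences passed limma's test at an adjusted p under 0.05 for 2106 features, 10.4% of those tested. It was positive for 1368 (6.74%) and negative for 738 (3.64%). In Fah-/- mice alone reduced NTBC raised 3538 features (17.4%) and lowered 4533 (22.3%), together 39.8% of those tested. In Fah-/- p53-/- mice it raised 4117 (20.3%) and lowered 3969 (19.6%), together 39.8%. Compared at one dose, loss of p53 raised 1287 (6.34%) and lowered 1541 (7.59%) on full NTBC, together 13.9%, and raised 1996 (9.83%) and lowered 1176 (5.79%) on reduced NTBC, together 15.6%. These splits depended on the setting. Of the calls in Fah-/- p53-/- mice 2623 were up and 8057 down with normexp, 4959 and 7277 without the filter on dim probes, and 2574 and 3750 where a probe had to be above background on each of the 28 arrays. For p53 loss on reduced NTBC the same settings gave 113 up and 108 down, 2752 and 3765, and 961 and 1092. Of the 2106, 994 responded by the same test only in Fah-/- mice, 721 only in Fah-/- p53-/- mice and 191 in both with opposite signs. Another 105 responded in the same direction but less without p53, 78 responded more without p53, and 17 passed in neither genotype. The plot of both responses shows these genes as a band on each side of the diagonal.

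**Figure D1:**
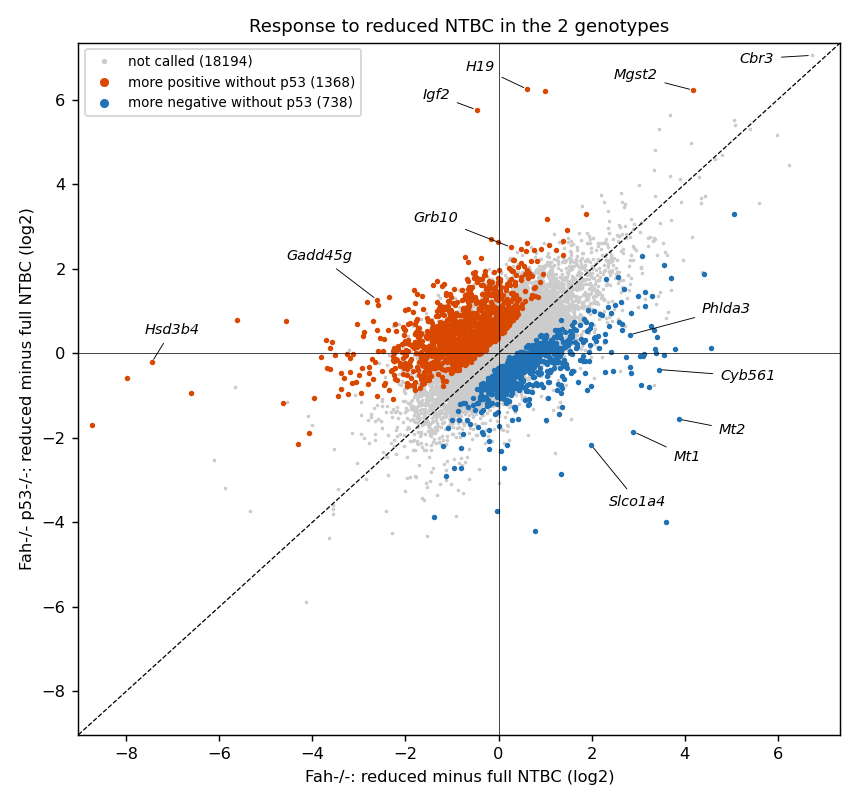
Log2 change from full to reduced NTBC in Fah-/- mice (horizontal axis) against Fah-/- p53-/- mice (vertical axis), 1 point per feature; the dashed diagonal marks equal responses. Orange points (1368) had a more positive and blue points (738) a more negative response without p53 at an adjusted p under 0.05, and grey points did not pass; Mt2 and Slco1a4 lie where the responses are opposite, and Cbr3 near the diagonal at the top right.

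The count of genes depended on how dim spots were treated. In the deposited values, which are quantile normalized, 1726 features passed, 1043 positive and 683 negative, and 1369 of the 2106 passed there too in the same direction. With normexp background correction and the same 75th percentile scaling 78 passed, 59 positive and 19 negative, of which 75 were among the 2106; that setting moved the median over all features to -0.212, from 0.034. Normexp with quantile normalization, added after the data were seen, called 1746, and 1392 of the 2106 passed there in the same direction. Among the dimmest 2 quintiles of features 855 calls were positive and 206 negative, against 266 and 368 among the brightest 2 quintiles. In the deposited values these counts were 503 and 249, and 324 and 278. The median over the dimmest quintile was 0.38 with the main setting, 0.028 with the deposited values and -0.77 with normexp. Of 98 genes examined one by one that passed, 16 also passed under every processing alternative, a minimum change of 2-fold included.

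**Figure D2:**
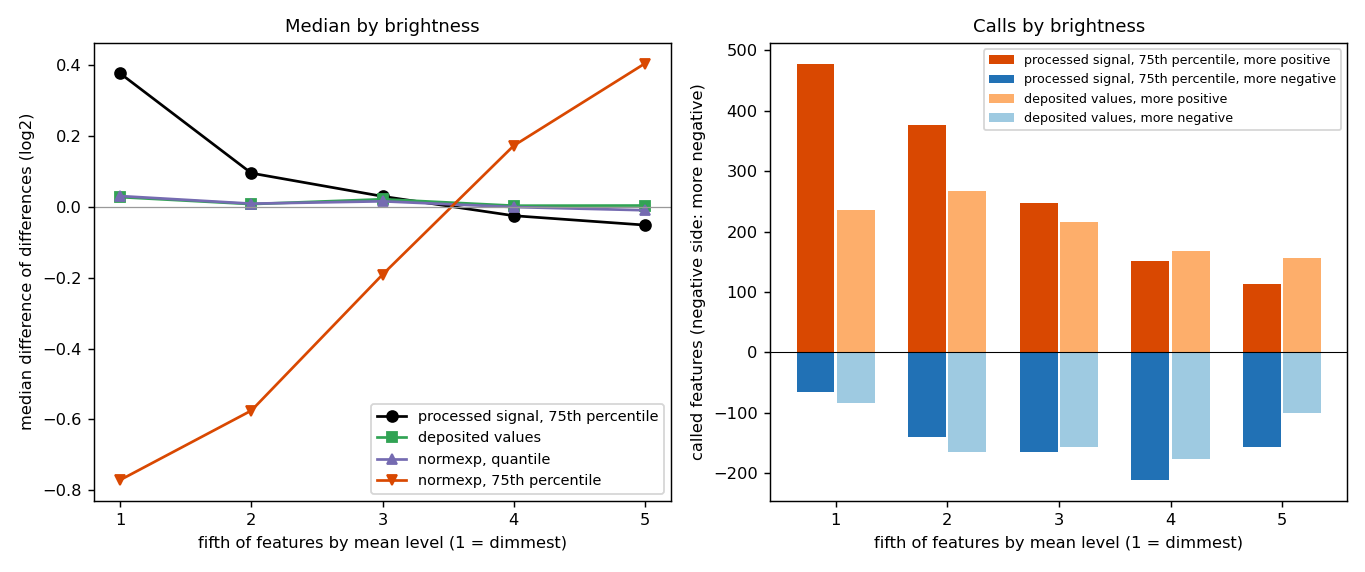
Left, median difference of differences (log2) in each quintile of the features by mean level, from dimmest to brightest, under 4 ways of processing; right, features that passed at an adjusted p under 0.05 per quintile, positive above 0 and negative below 0, for the processed signal and the deposited values. The medians of the deposited values and of normexp with quantile normalization stay near 0, while those with the 75th percentile tilt with brightness in opposite directions; 478 of the positive calls lie in the dimmest quintile with the processed signal.

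The 2106 features were also sorted, after their values were seen, by whether all 4 arrays of a group lay above or below the other 12. Over all features 25% had such a group. Among the 2106 it was Fah-/- on full NTBC for 393 (217 high, 176 low), Fah-/- on reduced NTBC for 381 (76 high, 305 low), Fah-/- p53-/- on reduced NTBC for 322 (214 high, 108 low) and Fah-/- p53-/- on full NTBC for 232 (104 high, 128 low). For 778 no group stood apart. The same sign of the difference of differences can therefore stand for different profiles: Phlda3 was high in Fah-/- mice on reduced NTBC, whereas Mt2 was low in Fah-/- mice on full NTBC.

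Among the targets of p53, Phlda3, Ccng1, Zmat3 and Aen rose on reduced NTBC in Fah-/- mice and rose less, or did not pass the test, without p53. Phlda3 encodes an inhibitor of Akt. It read -0.20, -0.08, -0.56 and -0.31 on the arrays of Fah-/- mice on full NTBC and 3.42, 2.23, 2.70 and 1.78 on reduced NTBC. Without p53 the levels were 0.078, -0.54, 0.077 and -0.21 on full and 0.02, 0.57, 0.56 and 0.0028 on reduced NTBC. Every array of Fah-/- mice on reduced NTBC lay above the other 12. The response was 2.82 in Fah-/- and 0.43 in Fah-/- p53-/- mice, a difference of differences of -2.38 (SE 0.38, adjusted p = 0.000384).

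Ccng1, which encodes cyclin G1, read 1.24, 1.62, 1.18 and 1.33 on full and 3.46, 3.11, 3.28 and 2.55 on reduced NTBC in Fah-/- mice. Without p53 it read 0.96, 0.84, 0.90 and 0.92 on full and 1.5, 1.59, 1.79 and 1.40 on reduced NTBC. All 4 groups were separate from the next in level except Fah-/- on full and Fah-/- p53-/- on reduced NTBC, whose arrays overlapped. It rose in both genotypes, by 1.76 and 0.66, and the difference was -1.10 (SE 0.29, adjusted p = 0.0167). Zmat3, a zinc finger protein that binds RNA, rose by 1.67 and by 0.55, with a difference of -1.12 (SE 0.29, adjusted p = 0.0172). For Aen, an apoptosis-linked nuclease, the Fah-/- arrays read 1.29, 1.65, 1.58 and 1.62 on full and 2.75, 2.22, 2.46 and 2.33 on reduced NTBC. Its Fah-/- p53-/- arrays read 0.68, 0.82, 1.04 and 0.83 on full and 1.08, 1.0, 0.90 and 0.48 on reduced NTBC, overlapping between doses and below every Fah-/- array. The response of Aen was 0.91 with p53 and 0.023 without, a difference of -0.88 (SE 0.20, adjusted p = 0.00683).

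Other targets rose in both genotypes. Cdkn1a, the cell cycle inhibitor p21, read -1.12, -1.0, -1.66 and -1.85 on full and 2.27, 0.69, 1.54 and 1.44 on reduced NTBC in Fah-/- mice. The Fah-/- p53-/- arrays read -2.98, -2.83, -2.43 and -3.34 on full and -1.16, 1.90, 0.30 and -0.87 on reduced NTBC; the arrays on reduced NTBC were spread more widely than any other group of this gene. It rose by 2.89 and 2.93, and the difference was 0.045 (SE 0.61, adjusted p = 0.974). Mdm2 rose by 0.62 and 0.64 (difference 0.024, SE 0.17) and the apoptosis effector Bax by 0.68 and 0.50 (difference -0.18, SE 0.19). A p that misses the threshold does not show that the responses were equal. The brightest Mdm2 probe is given; the other had a difference of -0.56, which did not pass. Mdm2 and Bax were lower without p53 at either dose, with log2 differences of -0.62 and -0.59 for Mdm2 and -0.65 and -0.83 for Bax. Cdkn1a was lower too, by log2 differences of -1.49 on full and -1.44 on reduced NTBC (limma's adjusted p = 0.0213 and 0.0235). Eda2r, a death receptor, was not well above background on any array on full NTBC. On reduced NTBC it was at least 9.29-fold higher in Fah-/- and at least 1.72-fold higher in Fah-/- p53-/- mice; such bounds set the bright group's mean against the lowest signal that counted as above background. Its fitted difference of differences was negative on each of 3 probes, from -2.20 to -1.40, and was called over probes on 2 of them; it did not pass on the brightest (adjusted p = 0.138) but did with the deposited values (-1.17, adjusted p = 0.0109).

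Over the whole list of arrest and feedback targets, 19 of 20 genes were measured. The median difference was -0.0016, beside 0.034 over all features. Over all features 3.64% were more negative and 6.74% more positive without p53, together 10.4%. Of the 19 genes 3 had a more negative and 1 a more positive response, together 21.1%. The exception was Sfn (0.65, SE 0.18, adjusted p = 0.0224), a 14-3-3 protein, whose call was lost without replicate 1 of Fah-/- on reduced NTBC and without replicate 4 of Fah-/- p53-/- on reduced NTBC (adjusted p = 0.0511 and 0.0501). Among 14 measured death genes 3 were more negative and 1 more positive, together 28.6%, with a median of -0.25. Besides Aen these were Bbc3, which encodes the death protein Puma, with -0.91 (adjusted p = 0.0176), and Bcl2l11, which encodes Bim, with -1.03 (adjusted p = 0.0453); Pidd1 was the positive one, with 0.62 (adjusted p = 0.0426). The profile of Bbc3 differed from that of Phlda3: it read 3.08 ± 0.25 in Fah-/- p53-/- mice on full NTBC, above all other groups, whose means were 2.12 to 2.27. In the repair and metabolism targets 2 of 14 (14.3%) were more negative, Ercc5 and Fancc, both DNA repair genes, at -0.50 and -0.57. None of 12 measured genes in the list of p53 itself and its regulators passed limma's test (3 higher and 1 lower at an unadjusted p under 0.05). In that list Trp53 was represented by its brighter probe, which did not pass for p53 loss at either dose. Bcl2l11, Pidd1, Ercc5 and Fancc each lost the call in 10 of the 16 fits that left out an array, and all of these but Pidd1 were not called with the deposited values. With normexp and the 75th percentile the calls of Ccng1, Zmat3, Aen, Bbc3 and Gadd45a were not made (adjusted p = 0.0694 to 0.407), while that of Phlda3 was.

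To set beside these values, the 250 bases before the annotated start of Ccng1 and of Cdkn1a are shown, from RefSeq (GRCm38.p6), since the response of the first differed between genotypes and that of the second did not pass. Capitals mark matches to the p53 half-site, searched on both strands. The upstream window of Ccng1 is chr11:40755287-40755536 on the minus strand and that of Cdkn1a, for the first of 2 annotated starts, is chr17:29090729-29090978 on the plus strand.
Ccng1: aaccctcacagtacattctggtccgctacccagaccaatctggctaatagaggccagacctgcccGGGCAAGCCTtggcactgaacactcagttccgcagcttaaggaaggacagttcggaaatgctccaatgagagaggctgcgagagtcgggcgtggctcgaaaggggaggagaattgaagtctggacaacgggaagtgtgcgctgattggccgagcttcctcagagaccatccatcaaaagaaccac
Cdkn1a: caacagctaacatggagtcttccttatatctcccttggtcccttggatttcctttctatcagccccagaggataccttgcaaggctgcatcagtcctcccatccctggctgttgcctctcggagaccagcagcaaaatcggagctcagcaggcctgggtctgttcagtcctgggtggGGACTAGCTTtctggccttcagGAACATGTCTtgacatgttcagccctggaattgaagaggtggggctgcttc
Ccng1 holds 1 match, 185 bases before the start, and the first start of Cdkn1a 2, at 73 and 51 bases before it. The window of the second Cdkn1a start, not shown, holds none. At least 1 match occurs in 7.13% of all 32851 promoter windows of this length and at least 2 in 0.259%. Mdm2, Bax, Gadd45a and 1 of 2 starts of Aen hold 1 match each, and Phlda3, Eda2r and Bbc3 hold none. A match is a run of letters and not evidence of binding.

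Stress genes of the Gadd45 family split. Gadd45a, a p53 target, had a response of 1.04 with p53 and -0.26 without, a difference of -1.29 (SE 0.32, adjusted p = 0.0128). Gadd45g moved oppositely: the Fah-/- arrays fell from 6.71, 6.42, 5.47 and 5.04 on full NTBC to 3.75, 3.27, 3.12 and 3.04 on reduced NTBC. Without p53 they went from 4.82, 3.97, 2.26 and 2.42 to 4.25, 5.14, 5.36 and 3.80, where the doses overlapped. The responses were -2.62 and 1.27, and the difference of differences was 3.88 (SE 0.63, adjusted p = 0.000441). Gadd45b did not pass (0.75, SE 0.37, adjusted p = 0.208). Dusp1, a phosphatase that switches off stress kinases, read 2.86, 2.44, 2.52 and 2.41 on full and 0.50, 0.18, 0.061 and 0.73 on reduced NTBC in Fah-/- mice, the first group lying above all other arrays. Levels without p53 were 1.27, 2.28, 0.68 and 0.52 on full and 1.30, 1.46, 1.71 and 0.63 on reduced NTBC. It fell by 2.19 with p53, had a response of 0.086 without, and the difference was 2.28 (SE 0.43, adjusted p = 0.002).

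**Figure D3:**
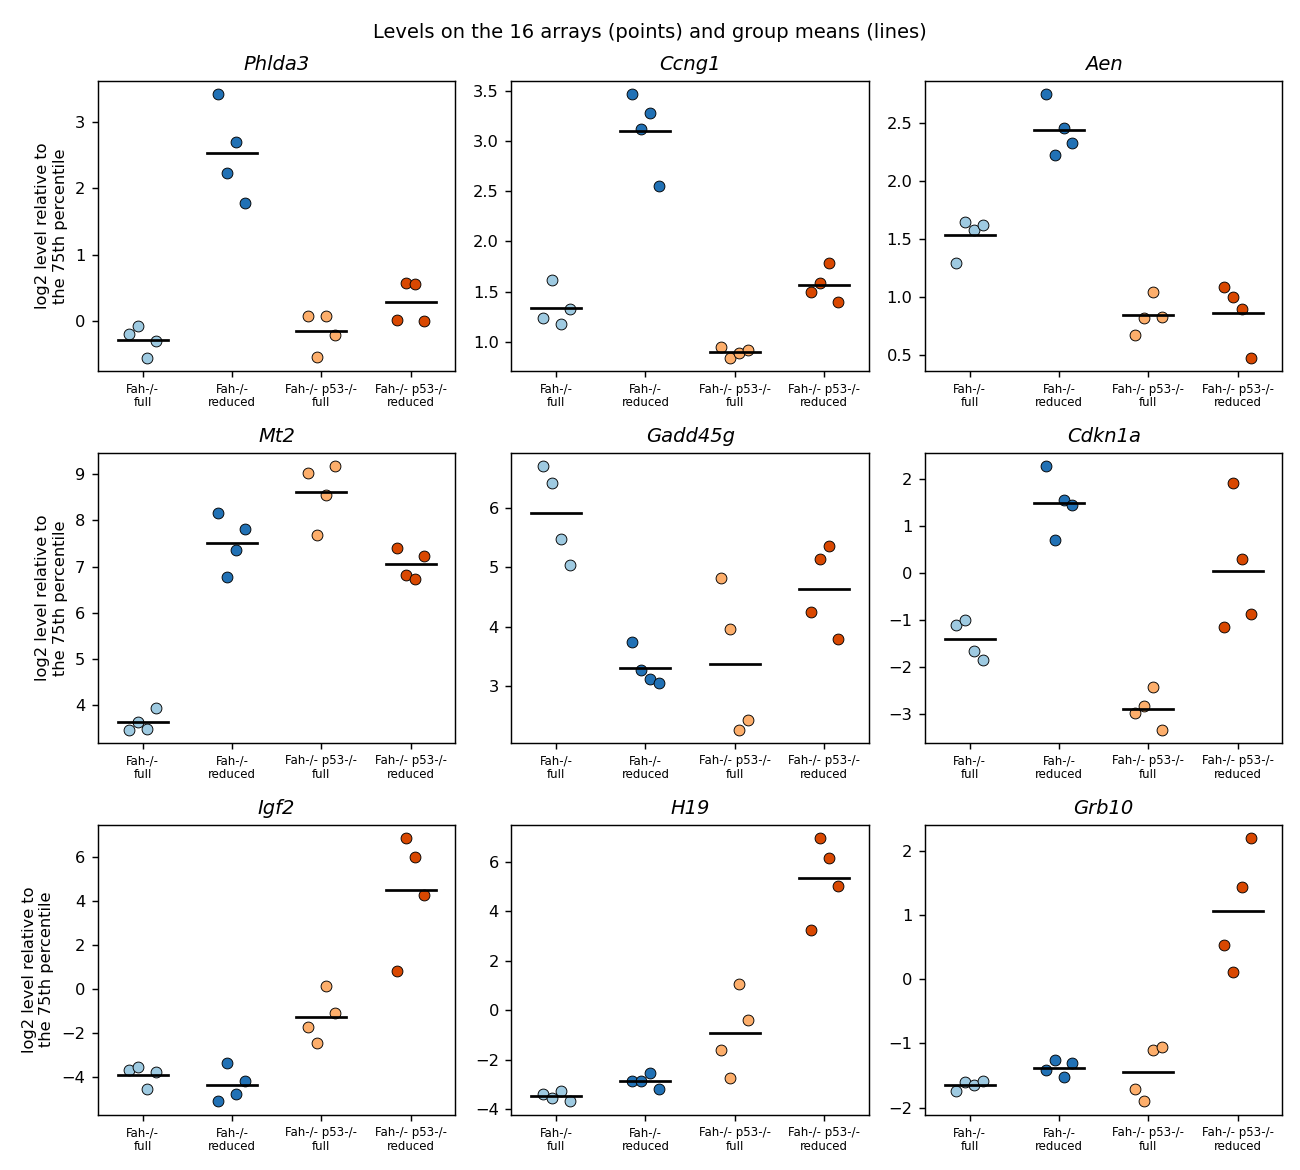
Log2 level relative to the array's 75th percentile of 9 genes on each of the 16 arrays (points) with group means (lines), for Fah-/- and Fah-/- p53-/- mice on full and reduced NTBC. Phlda3 stands high in Fah-/- mice on reduced NTBC alone, Mt2 stands low in Fah-/- mice on full NTBC alone, Cdkn1a rises in both genotypes, and Igf2, H19 and Grb10 stand high in Fah-/- p53-/- mice on reduced NTBC.

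Metallothioneins bind zinc and copper and are induced by metals, glucocorticoids and stress. Both measured genes of the pair, Mt1 and Mt2, differed mainly through Fah-/- mice on full NTBC. Mt2 read 3.47, 3.64, 3.49 and 3.95 there and 8.15, 6.76, 7.35 and 7.80 on reduced NTBC. With p53 lost, levels were 9.03, 7.68, 8.56 and 9.18 on full and 7.41, 6.83, 6.73 and 7.23 on reduced NTBC. All 12 other arrays lay above those of Fah-/- mice on full NTBC. The level thus rose by 3.88 in Fah-/- and fell by 1.56 in Fah-/- p53-/- mice. On full NTBC Fah-/- p53-/- exceeded Fah-/- mice by 4.97, while on reduced NTBC the difference was -0.47 (adjusted p = 0.298). The difference of differences was -5.44 (SE 0.41, adjusted p = 1.61e-08). Mt1 had group means of 4.01 ± 0.27, 6.91 ± 0.59, 8.34 ± 0.79 and 6.49 ± 0.24 in the same order (SD, n = 4) and a difference of -4.76 (SE 0.46, adjusted p = 1.02e-06); its second probe gave -2.34.

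Since both genes moved together, their 250 bases upstream of the start are shown from RefSeq (GRCm38.p6), with the core of the metal response element in capitals (TGCACNC or TGCGCNC, either strand). The window of Mt1 is chr8:94178839-94179088 and that of Mt2 is chr8:94172368-94172617, both on the plus strand of the same chromosome.
Mt1: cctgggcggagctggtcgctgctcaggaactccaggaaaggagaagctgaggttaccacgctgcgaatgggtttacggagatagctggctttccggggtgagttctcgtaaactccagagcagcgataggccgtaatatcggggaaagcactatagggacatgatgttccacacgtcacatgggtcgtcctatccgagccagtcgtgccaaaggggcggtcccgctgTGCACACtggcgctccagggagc
Mt2: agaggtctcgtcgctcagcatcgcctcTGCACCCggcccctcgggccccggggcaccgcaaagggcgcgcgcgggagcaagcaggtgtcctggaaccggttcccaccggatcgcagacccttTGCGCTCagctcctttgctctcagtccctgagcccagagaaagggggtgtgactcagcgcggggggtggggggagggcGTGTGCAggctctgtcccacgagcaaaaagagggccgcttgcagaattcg
Mt1 holds 1 core, 23 bases before the start, and Mt2 holds 3, at 223, 128 and 50 bases. Of all 32851 windows of this length 21.4% hold at least 1 core and 1.26% at least 3, and the Mdm2 window also holds 3. Of the 16 measured genes of the metallothionein and zinc list, 2 were more negative (Mt1 and Mt2) and 2 more positive, the zinc importers Slc39a4 (1.06, SE 0.27, adjusted p = 0.0147) and Slc39a10 (1.12). Together these were 25% of the list, beside 10.4% of all features. Slc39a4 read 5.77 ± 0.52 in Fah-/- p53-/- mice on full NTBC against group means of 6.90 to 7.09 elsewhere. Slc39a10 was well above background on 3 of the 12 arrays outside Fah-/- p53-/- on reduced NTBC, was not called with the deposited values and turned to -0.59 with normexp (adjusted p = 0.388). The zinc exporter Slc30a1, a usual partner of metallothionein induction, did not pass (-0.24, SE 0.26, adjusted p = 0.595).

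Mouse liver expresses many genes differently in males and females, under control of the rhythm of growth hormone. Of 23 measured male-biased genes (29 listed) 8 (34.8%, beside 6.74% of all features) had a more positive response without p53 and none a more negative one, with a median of 0.83 against 0.034 over all features. Of 27 measured female-biased genes (31 listed) 7 (25.9%, beside 3.64% of all features) were more negative and none more positive, with a median of -1.24; 5 of the 27 were above background on no array of Fah-/- mice on full NTBC and 5 on none on reduced NTBC, so that median rests in part on background. At full dose the male-biased genes were lower without p53 (median -2.04) and the female-biased ones higher (median 3.14); at reduced dose these medians were -1.51 and 1.41. In Fah-/- mice 13 male-biased genes fell and 1 rose on reduced NTBC, while 11 female-biased genes rose and none fell. In Fah-/- p53-/- mice 6 male-biased genes fell and 5 rose, and 7 female-biased genes fell and 1 rose. Over all features 22.3% fell and 17.4% rose in Fah-/- mice, and 19.6% fell and 20.3% rose in Fah-/- p53-/- mice.

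Hsd3b4, a steroid dehydrogenase of male liver, read 6.38, 5.86, 5.71 and 5.73 in Fah-/- mice on full NTBC and -3.62, -0.27, -2.36 and 0.11 on reduced NTBC. Corresponding values in Fah-/- p53-/- mice were -2.94, -2.88, -3.28 and -1.87 on full and -2.68, -2.97, -3.14 and -3.06 on reduced NTBC, already low on the full dose. The difference of differences was 7.24 (SE 0.83, adjusted p = 9.54e-06). The related Hsd3b5 gave 7.39 (SE 1.10, adjusted p = 0.000209), but it was well above background on only 1 of 4 arrays in each Fah-/- p53-/- group. Whether the probes of these related genes read separate transcripts was not tested. C6, a complement component, had the same profile at 4.16, 3.82, 3.69 and 4.10 on full and 0.54, 0.78, 0.29 and 1.17 on reduced NTBC in Fah-/- mice. Its Fah-/- p53-/- arrays read -0.63, -1.04, -0.32 and -0.62 on full and -1.11, -0.35, -0.56 and -0.64 on reduced NTBC, which overlapped. The responses of C6 were -3.25 and -0.012, and the difference was 3.23 (SE 0.34, adjusted p = 2.93e-06). Selenbp2, a selenium-binding protein, differed by 1.02 (SE 0.25, adjusted p = 0.0104).

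Gstp1, Nat8f5 and Cyp4a12b were instead lowest on average in Fah-/- p53-/- mice on full NTBC. Gstp1, a glutathione transferase, read 10.14, 10.02, 9.77 and 9.99 on full and 9.34, 9.31, 9.44 and 9.41 on reduced NTBC in Fah-/- mice. Fah-/- p53-/- mice gave 7.72, 8.78, 8.27 and 8.03 on full and 9.23, 9.19, 9.06 and 9.06 on reduced NTBC, so it fell with p53 (-0.61) and rose without it (0.93), a difference of 1.54 (SE 0.22, adjusted p = 0.000128). Nat8f5, an acetyltransferase family member, gave 2.63 (SE 0.71, adjusted p = 0.02) and Cyp4a12b, a fatty acid hydroxylase, 1.37 (SE 0.42, adjusted p = 0.0377). The last lost its call in 10 of the 16 fits that left out an array, and Nat8f5 lost it when the 16 arrays were fitted alone. Cspg5 (1.27, adjusted p = 0.00448) turned to -0.28 with normexp (adjusted p = 0.676). Other male-biased genes did not pass. Elovl3, a fatty acid elongase, gave 3.39 (SE 1.26, adjusted p = 0.0859) and passed with the deposited values (3.27, adjusted p = 0.000106), while Cyp2d9 gave 0.35 (SE 0.22, adjusted p = 0.334) and the urinary protein Mup3 -1.32 (SE 1.30, adjusted p = 0.562). Mup3 was lowest in Fah-/- p53-/- mice on reduced NTBC (2.89 ± 0.85) and highest in Fah-/- mice on full NTBC (9.85 ± 0.16).

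Among female-biased genes the transcription factor Cux2 was not well above background on any array of Fah-/- mice on full NTBC. It was at least 17.4-fold higher in Fah-/- p53-/- mice on full NTBC and at least 10.3-fold higher in Fah-/- p53-/- mice on reduced NTBC, and 3 of 4 arrays of Fah-/- mice on reduced NTBC measured it (adjusted p of the difference of differences = 0.000935). Abcd2, a peroxisomal fatty acid transporter, followed the same order, with 1 array above background in Fah-/- mice on full NTBC and a difference of -3.11 (adjusted p = 6.74e-05). Slc22a26, of the organic anion transporter family, was above background on 1 of 4 arrays of Fah-/- mice on full NTBC, so values against that group carry background. It read -4.60, -4.30, -4.99 and -4.27 on full and -3.56, -4.02, -3.37 and -4.10 on reduced NTBC in Fah-/- mice. In Fah-/- p53-/- mice it read 3.14, 1.84, 0.85 and 3.11 on full NTBC and -2.37, -2.33, -1.29 and -1.94 on reduced NTBC. It was highest in Fah-/- p53-/- mice on full NTBC and fell by 4.22 there, while in Fah-/- mice the response of 0.78 did not pass. The difference was -5.00 (SE 0.59, adjusted p = 1.05e-05). Slc22a29, of the same transporter family, was not above background in Fah-/- mice at either dose and was at least 66.2-fold higher without p53 on full NTBC and at least 14.6-fold higher on reduced NTBC. Since neither Fah-/- group measured it, no difference of differences is given. Fmo2, a flavin monooxygenase, rose by 0.52 with p53 and fell by 0.64 without it (-1.16, SE 0.28, adjusted p = 0.00998). The other called members were Fmo1 (-0.93, adjusted p = 0.0368), lost in 10 of the 16 fits that left out an array, and Cyp39a1 (-1.25, adjusted p = 0.0198). Cyp2b9 did not pass (-2.67, SE 1.5, adjusted p = 0.267) and read 6.48, -1.13, 6.61 and 6.55 in Fah-/- p53-/- mice on full NTBC.

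Of the growth hormone axis, 1 of 20 measured genes was more positive and 1 more negative without p53: Socs3 and Cux2 (together 10%, beside 10.4% of all features). Socs3, an inhibitor of cytokine signalling, fell by 2.12 in Fah-/- mice and had a response of -0.31 without p53, a difference of 1.81 (SE 0.48, adjusted p = 0.0175). The receptor gene Ghr fell in both genotypes (-0.89 and -1.02), with a difference of -0.13 (SE 0.20, adjusted p = 0.729). Igf1 (0.18, SE 0.54, adjusted p = 0.878), the receptor inhibitors Cish (1.84, SE 0.84, adjusted p = 0.165) and Socs2 (0.92, SE 0.55, adjusted p = 0.298), and the repressor Bcl6 (-1.66, SE 0.74, adjusted p = 0.157) did not pass. With normexp and the 75th percentile the calls of Selenbp2, Nat8f5, Cux2, Abcd2, Fmo2 and Socs3 were not made (adjusted p = 0.0541 to 0.343).

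Drug and anion transporters included Slco1a4, an uptake carrier of bile acids and drugs. It read -1.40, -1.05, -1.48 and -0.82 on full and 0.049, 0.40, 1.85 and 0.90 on reduced NTBC in Fah-/- mice. Without p53 it read 2.38, 2.58, 1.84 and 2.37 on full and -0.47, 0.96, 0.13 and -0.14 on reduced NTBC. It rose by 1.99 with p53 and fell by 2.17 without, a difference of -4.16 (SE 0.62, adjusted p = 0.000201); on reduced NTBC the genotypes overlapped. Of 19 measured uptake carriers 3 (15.8%, beside 3.64% of all features) were more negative, Slco1a4, Slc22a26 and Slc22a30, and none more positive. Slc22a30 lost its call in 15 of the 16 fits that left out an array. Among 17 efflux pumps 2 (11.8%, beside the same 3.64%) were more negative and none more positive. Abcb1a, a multidrug pump, was not above background in Fah-/- mice on full NTBC and at least 3.23-fold higher on reduced NTBC, but its call was not made with the deposited values (adjusted p = 0.0832). Abcc12 was above background on no array on full NTBC and on all on reduced NTBC: it was at least 5.83-fold higher with p53 and at least 1.2-fold higher without (adjusted p of the difference = 0.00297). Of the P450 enzymes 1 of 28 was more positive, Cyp2d22 (1.01, adjusted p = 0.00739). The 2 more negative ones were Cyp2c38 (-2.76, adjusted p = 0.00464) and the shared reductase Por (-0.78, adjusted p = 0.0289). These 3 of 28 were near the 10.4% of all features that passed in either direction. The main bile acid carrier Slc10a1 did not pass (0.29, SE 0.40, adjusted p = 0.693).

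**Figure D4:**
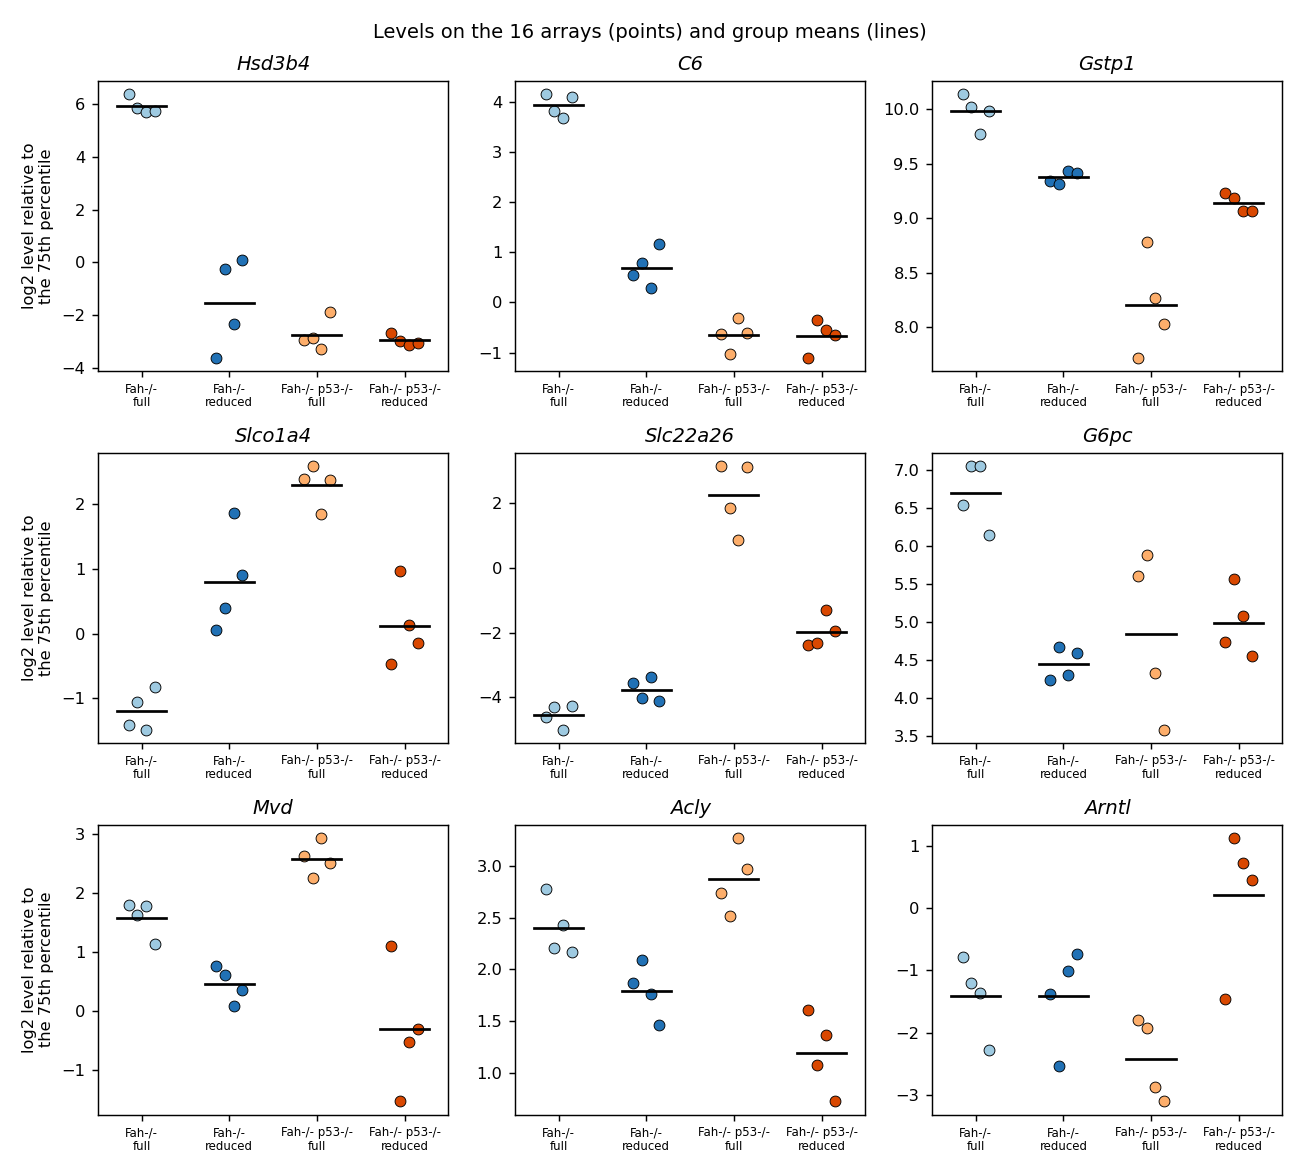
Log2 level relative to the array's 75th percentile of 9 liver genes on each of the 16 arrays (points) with group means (lines). Hsd3b4, C6 and G6pc stand high in Fah-/- mice on full NTBC, Gstp1 is lowest and Slc22a26 highest in Fah-/- p53-/- mice on full NTBC, Slco1a4 responds oppositely in the genotypes, and Mvd and Acly fall further without p53 while Arntl is high on 3 of the 4 arrays of Fah-/- p53-/- mice on reduced NTBC.

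Igf2 and H19 are neighbouring imprinted genes, a fetal growth factor and a noncoding RNA, that fall silent in liver after birth. Igf2 read -3.67, -3.53, -4.52 and -3.78 on full and -5.09, -3.35, -4.75 and -4.18 on reduced NTBC in Fah-/- mice, where 3 and 1 of 4 arrays were above background. The Fah-/- p53-/- arrays read -1.70, -2.44, 0.13 and -1.10 on full and 0.83, 6.87, 5.99 and 4.26 on reduced NTBC. Every array of the last group lay above the other 12, although replicate 1 was lower than the rest. The difference of differences was 6.23 (SE 1.13, adjusted p = 0.00129), or 7.45 without that replicate. H19 was above background on all 16 arrays and read -3.38, -3.55, -3.24 and -3.68 on full and -2.84, -2.85, -2.54 and -3.17 on reduced NTBC with p53. Levels without p53 were -1.59, -2.72, 1.08 and -0.37 on full and 3.25, 6.97, 6.16 and 5.01 on reduced NTBC, and the difference was 5.64 (SE 0.96, adjusted p = 0.000707), or 6.34 without replicate 1 of the last group. Both were already higher without p53 on full NTBC, Igf2 by 2.60 (adjusted p = 0.0319) and H19 by 2.56 (adjusted p = 0.0128).

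Grb10, an imprinted adaptor that restrains insulin and growth factor receptors, read -1.73, -1.60, -1.65 and -1.59 on full and -1.41, -1.26, -1.52 and -1.30 on reduced NTBC in Fah-/- mice. It read -1.71, -1.90, -1.10 and -1.05 on full and 0.54, 0.10, 1.43 and 2.20 on reduced NTBC in Fah-/- p53-/- mice, again with the last group above all others. The difference was 2.24 (SE 0.56, adjusted p = 0.0131), and all 3 of its probes were positive. Gnas, the stimulatory G protein subunit, was lowest in Fah-/- p53-/- mice on full NTBC and differed by 0.60 (SE 0.15, adjusted p = 0.0147). In all, 5 of 16 measured imprinted genes (31.2%, beside 6.74% of all features) were more positive without p53 and none more negative, with a median of 0.53; with the deposited values 4 passed and the median was 0.15. The last of them, Nnat, was above background on 3 arrays of a single group and turned to -0.84 with normexp (adjusted p = 0.355). Meg3 (2.34, SE 1.05, adjusted p = 0.161), Dlk1 (0.61, SE 0.87, adjusted p = 0.705), Peg3 (0.46, SE 0.63, adjusted p = 0.695) and Igf2r (-0.14, SE 0.15, adjusted p = 0.591) did not pass. Dlk1 was above background only in Fah-/- p53-/- mice on reduced NTBC, so its value rests on background. Peg3 rose in both genotypes, by 2.38 and 2.84. Of 34 measured genes of fetal liver and liver tumours 2 were more positive, again Igf2 and H19, and 1 more negative, Robo1. These were 8.82% of that list, beside 10.4% of all features. Gpc3, a tumour marker, rose by 3.45 and 5.31 (difference 1.86, SE 0.61, adjusted p = 0.0533), and Afp gave 0.59 (SE 0.80, adjusted p = 0.692). With normexp and the 75th percentile Grb10 and Gnas were not called (adjusted p = 0.15 to 0.204).

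Among genes of cholesterol and fatty acid synthesis, each difference of differences that passed was negative except that of Agpat2. Of 26 cholesterol genes, all measured, 14 fell in Fah-/- and 24 in Fah-/- p53-/- mice and none rose. Of all features 22.3% and 19.6% fell. The list medians were -0.71 and -1.42. The difference of differences passed as negative for 5 of the 26 genes (19.2%, beside 3.64% of all features) and as positive for none. The list median was -0.68. Mvd, which makes isopentenyl diphosphate, read 1.79, 1.62, 1.79 and 1.13 on full and 0.76, 0.60, 0.083 and 0.36 on reduced NTBC in Fah-/- mice. With p53 lost, levels were 2.64, 2.25, 2.94 and 2.50 on full and 1.11, -1.54, -0.52 and -0.31 on reduced NTBC; the doses did not overlap, and 3 of the 4 arrays of the last group lay below all others. It fell by 1.13 with and 2.90 without p53, a difference of -1.77 (SE 0.45, adjusted p = 0.0151). Of the others, the sterol enzymes Msmo1 gave -1.51 (adjusted p = 0.0288) and Tm7sf2 -1.14 (adjusted p = 0.0293). They lost the call in 7 and 8 of the 16 fits that left out an array, and with the deposited values 3 of the 26 genes passed. Sqle (-1.10, SE 0.55, adjusted p = 0.212) and Fdps (-0.46, SE 0.46, adjusted p = 0.572) did not pass.

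Of 25 lipogenesis genes 9 fell and 2 rose in Fah-/- mice, and 17 fell and 1 rose in Fah-/- p53-/- mice. Of all features 22.3% and 19.6% fell in these genotypes. The difference of differences passed for 4 of the 25 genes (16%, beside 10.4% of all features), 3 of them negative, and the list median was -0.76. Acly, which supplies acetyl-CoA, read 2.78, 2.21, 2.43 and 2.17 on full and 1.86, 2.09, 1.76 and 1.46 on reduced NTBC in Fah-/- mice and 2.74, 2.52, 3.27 and 2.97 on full and 1.61, 1.07, 1.36 and 0.72 on reduced NTBC in Fah-/- p53-/- mice. Both genotypes fell, by 0.61 and 1.68, with a difference of -1.08 (SE 0.27, adjusted p = 0.0131). For the acetyl-CoA carboxylase Acaca the response was 0.17 with and -0.76 without p53 (difference -0.94, SE 0.21, adjusted p = 0.00676), and its 4 probes ranged from -1.73 to -0.18. Its isozyme Acacb (-1.30, adjusted p = 0.048) lost the call in 12 of the 16 fits that left out an array. Agpat2, of triglyceride synthesis, was the positive one (1.02, adjusted p = 0.0303). Fasn, the fatty acid synthase, fell in both genotypes and its difference did not pass (-1.02, SE 0.42, adjusted p = 0.12). With normexp and the 75th percentile Mvd, Acly and Acaca were not called (adjusted p = 0.209 to 0.337).

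G6pc, which releases glucose from the liver, read 6.53, 7.05, 7.05 and 6.14 in Fah-/- mice on full NTBC, above all 12 other arrays, and 4.24, 4.67, 4.30 and 4.60 on reduced NTBC. Corresponding values in Fah-/- p53-/- mice were 5.60, 5.88, 4.33 and 3.59 on full and 4.74, 5.56, 5.08 and 4.55 on reduced NTBC. It fell by 2.24 with p53 and had a response of 0.13 without, a difference of 2.38 (SE 0.50, adjusted p = 0.00444). It was the only one of 19 genes of gluconeogenesis and glycogen to pass (5.26%), and the only one of 22 glucocorticoid and fasting genes (4.55%). Over all features 10.4% passed. Pdk1, a kinase that restrains pyruvate oxidation, gave -1.67 (SE 0.40, adjusted p = 0.0105).

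Clock genes set the daily rhythm of liver metabolism. Arntl, a clock activator, read -0.79, -1.20, -1.36 and -2.27 on full and -1.38, -2.54, -1.01 and -0.74 on reduced NTBC in Fah-/- mice, and -1.80, -1.92, -2.88 and -3.11 on full and -1.46, 1.13, 0.72 and 0.46 on reduced NTBC in Fah-/- p53-/- mice. Per3, a clock repressor, read -3.09, -2.38, -2.54 and -1.78 on full and -2.66, -1.24, -3.01 and -2.41 on reduced NTBC with p53, and -1.55, -1.14, -0.66 and -0.74 on full and -2.12, -5.12, -4.24 and -3.44 on reduced NTBC without. In Fah-/- p53-/- mice on reduced NTBC replicates 2 to 4 had high Arntl and low Per3, and replicate 1 had levels closer to the other groups for both. The differences were 2.65 (SE 0.62, adjusted p = 0.00869) for Arntl and -2.83 (SE 0.66, adjusted p = 0.00844) for Per3, and without that replicate they were 3.21 and -3.37. Dbp, an output gene, did not pass (-2.55, SE 0.83, adjusted p = 0.0518); its levels in the last group were 6.13, 1.24, 3.22 and 4.69, and without replicate 1 it gave -3.32 (adjusted p = 0.00343) and without replicate 4 -2.84 (adjusted p = 0.0445). Nr1d1 did not pass either (0.18, SE 0.42, adjusted p = 0.835). Of 19 measured clock genes 1 was more positive and 1 more negative, together near the 10.4% of all features that passed. The same replicate 1 had the lowest Igf2 and H19 and the highest Mvd of its group. Per the labels' protocols all experiments ran in the day phase; the hour of sampling is unknown here, and its part in these results was not tested.

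Few cell cycle genes passed the difference of differences. Of 36 measured G2/M and mitosis genes none passed limma's test of the difference of differences (10 higher and 0 lower at an unadjusted p under 0.05; 0 with the deposited values at the adjusted threshold). Of the 36, 9 were above background on no array of Fah-/- mice on full NTBC and 11 on none on reduced NTBC, against 2 and 0 without p53, so the list's median rests in part on levels at background. Within Fah-/- p53-/- mice 10 of the 36 rose on reduced NTBC and none fell, and within Fah-/- mice 2 rose and 1 fell. Over all features 20.3% rose and 19.6% fell in Fah-/- p53-/- mice, and 17.4% rose and 22.3% fell in Fah-/- mice. By dose, 27 of the 36 were higher without p53 on reduced NTBC, beside 9.83% of all features. On full NTBC 2 were, beside 6.34%, and none was lower at either dose. These comparisons too include members at background in Fah-/- mice. Mki67, a proliferation marker, read -0.15, -0.36, 1.32 and 0.85 on full and -0.31, 1.80, 1.61 and 0.94 on reduced NTBC in Fah-/- p53-/- mice and gave 1.42 (SE 0.95, adjusted p = 0.36). Top2a, a topoisomerase of dividing cells, gave 0.38 (SE 0.92, adjusted p = 0.839). Ccnb1, the mitotic cyclin B1, was above background in no array of Fah-/- mice, so no difference of differences is given. On reduced NTBC it was at least 4.25-fold higher without p53. Of 35 S phase genes 3 (8.57%, beside 6.74% of all features) were more positive, and of 14 G1 cyclins and CDK inhibitors 1 (7.14%) was, Ccnd3. The list medians were 0.62 and -0.031. By dose, 15 of the 35 S phase genes were higher and 1 lower without p53 on reduced NTBC. On full NTBC none of the 35 was higher and 1 was lower. Rfc3, which loads the replication clamp, fell by 0.43 with p53 and rose by 0.70 without (difference 1.13, SE 0.22, adjusted p = 0.00231). Mcm7 (0.88, adjusted p = 0.0416) and E2f8 (1.97, adjusted p = 0.048) lost the call in 13 and 14 of the 16 fits that left out an array. Among immediate early genes Myc rose by 2.18 without p53 and had a response of 0.70 with it (difference 1.47, SE 0.45, adjusted p = 0.0368; call lost in 8 of the 16 such fits), Fos did not pass (1.05, SE 0.86, adjusted p = 0.478), and the matrix gene Ccn2 gave -1.73 (adjusted p = 0.035), a call not made with the deposited values (adjusted p = 0.0561). Fosb (1.78, adjusted p = 0.0185) was above background on all arrays of Fah-/- p53-/- mice on reduced NTBC and on 1 of the other 12, and turned to -0.53 with normexp.

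**Figure D5:**
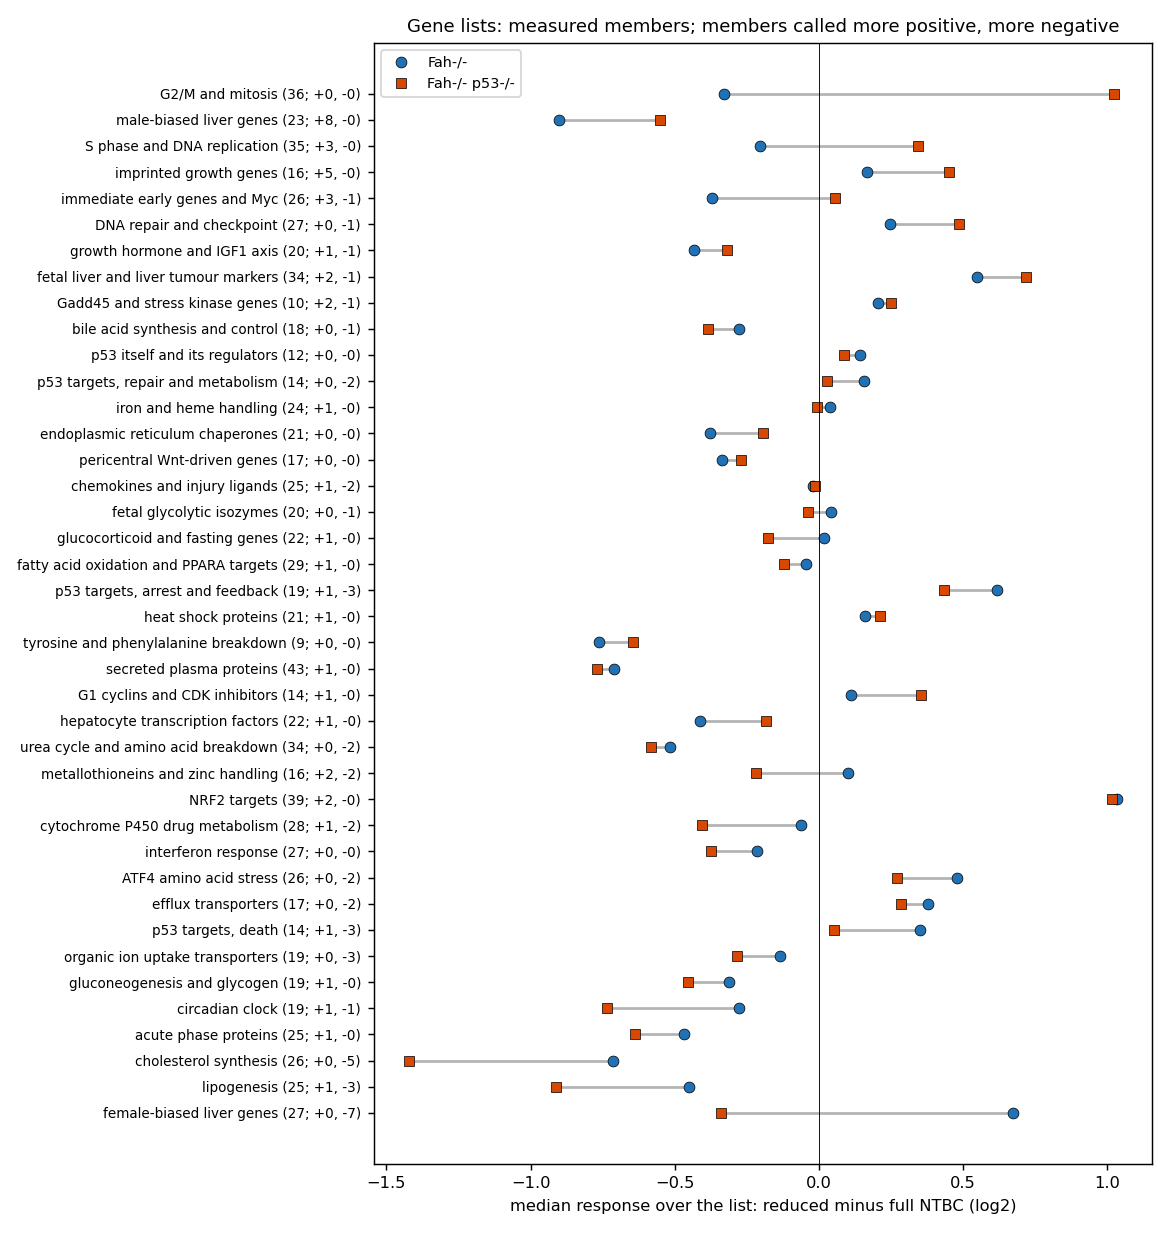
Median log2 change from full to reduced NTBC over the measured members of each of 40 gene lists, in Fah-/- mice (blue circles) and Fah-/- p53-/- mice (orange squares), ordered by the median difference of differences. The numbers after each name give the members measured and those more positive and more negative without p53 at an adjusted p under 0.05; the female-biased list has the lowest median difference and the G2/M list the highest, with 0 members called and up to 11 members at background in Fah-/- mice; with normexp and the 75th percentile the male-biased list is highest instead.

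Targets of NRF2 rose in both genotypes. Of 39 measured NRF2 targets 25 rose and 3 fell on reduced NTBC in Fah-/- mice, and 27 rose and 1 fell in Fah-/- p53-/- mice, with medians of 1.03 and 1.02. Over all features 17.4% rose in Fah-/- and 20.3% in Fah-/- p53-/- mice. The difference passed for 2 of the 39 targets, or 5.13%, beside 10.4% of all features. Cbr3, a carbonyl reductase, rose by 6.74 and 7.05 (difference 0.31, SE 0.46, adjusted p = 0.715). Gclc, of glutathione synthesis, rose by 1.63 and 1.77 (difference 0.14, SE 0.25, adjusted p = 0.764). Nqo1 rose by 2.09 and 1.37 (difference -0.72, SE 0.28, adjusted p = 0.108), and Hmox1 by 1.32 and 0.86 (difference -0.47, SE 0.40, adjusted p = 0.499). The 2 that passed were Gstp1, above, and Mgst2, a membrane glutathione transferase. Mgst2 read -1.99, -0.91, -0.61 and -1.21 on full and 2.93, 3.39, 3.19 and 2.49 on reduced NTBC in Fah-/- mice, and -2.77, -2.78, -1.07 and -2.12 on full and 3.63, 4.11, 3.86 and 4.56 on reduced NTBC in Fah-/- p53-/- mice. It rose in both and more without p53 (4.18 and 6.23; difference 2.04, SE 0.45, adjusted p = 0.0056), a call not made with normexp and the 75th percentile (adjusted p = 0.163).

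Secreted plasma proteins fell in both genotypes, 36 of 43 in Fah-/- and 40 of 43 in Fah-/- p53-/- mice, beside 22.3% and 19.6% of all features. The difference passed for 1 (2.33%, beside 10.4% of all features), C6. Alb, for albumin, fell by 0.77 and 0.73, with a difference of 0.04 (SE 0.13, adjusted p = 0.89). None of 9 genes of tyrosine and phenylalanine breakdown passed the difference in limma's test (0 in either direction at an unadjusted p under 0.05, and 0 with the deposited values), and 6 fell in each genotype. Hpd, the enzyme that NTBC inhibits, fell by 1.17 and 1.12 (difference 0.053, SE 0.31, adjusted p = 0.941), and Tat, which starts tyrosine breakdown, by 1.74 and 1.44 (difference 0.30, SE 0.37, adjusted p = 0.658).

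Several genes not described so far were set apart in Fah-/- mice. Cyb561, a membrane electron carrier, read -2.65, -2.16, -2.65 and -2.65 on full and 0.93, 0.97, 1.0 and 0.74 on reduced NTBC in Fah-/- mice, the full-dose arrays lying below all others. Fah-/- p53-/- mice gave 1.07, 0.15, 0.95 and 0.16 on full and 0.20, 0.90, 0.19 and -0.51 on reduced NTBC, and the difference was -3.83 (SE 0.32, adjusted p = 8.77e-08). A2ml1, of the protease inhibitor family of alpha-2-macroglobulin, differed by -2.65 (SE 0.28, adjusted p = 3.76e-06) and Psmc3ip, a recombination cofactor, by -3.70 (SE 0.49, adjusted p = 5.45e-05), both low in Fah-/- mice on full NTBC; only 2 of 4 of those arrays measured Psmc3ip above background. Vldlr, a lipoprotein receptor, rose by 1.35 with p53 and fell by 0.94 without (-2.29, SE 0.52, adjusted p = 0.00691). Cxcl1, a neutrophil chemokine, gave -2.40 (SE 0.60, adjusted p = 0.0131). High in Fah-/- mice on full NTBC were Cfd, the protease factor D (5.68, SE 0.93, adjusted p = 0.000476), Aox3, an aldehyde oxidase (1.73, SE 0.24, adjusted p = 8.61e-05), and Ift57, of the cilium (2.80, SE 0.31, adjusted p = 6.26e-06). Cfd was above background on 1 of 4 arrays of Fah-/- mice on reduced NTBC. Plcxd2 has 2 probes that went opposite ways, -2.83 and 2.83.

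Rnase4, a secreted ribonuclease, was low in Fah-/- mice on reduced NTBC: it read 7.40, 7.72, 7.36 and 7.59 on full and 4.98, 4.52, 5.01 and 4.71 on reduced NTBC there. In Fah-/- p53-/- mice it read 5.91, 5.99, 5.59 and 5.59 on full and 5.56, 5.94, 5.57 and 5.45 on reduced NTBC, and the difference was 2.57 (SE 0.28, adjusted p = 5.78e-06), similar on both probes. Crybg3, a crystallin-domain protein, had the profile of Phlda3, with group means of -0.21 ± 0.22, 1.76 ± 0.22, -0.39 ± 0.19 and -0.19 ± 0.35 in the order used above (SD, n = 4) and a difference of -1.76 (SE 0.22, adjusted p = 3.07e-05). Cyp2g1, a P450, was high there too (-2.02, SE 0.52, adjusted p = 0.0155), though its second probe gave -0.12. Carmil1, an actin regulator, fell by 1.80 with p53 and rose by 1.19 without (2.99, SE 0.27, adjusted p = 3.21e-07), and was lowest in Fah-/- p53-/- mice on full NTBC, as was the serine protease inhibitor Serpina3j (1.69, SE 0.33, adjusted p = 0.00246). Large positive values were also fitted for Dct (7.02, adjusted p = 0.0452) and Syt10 (5.33, adjusted p = 0.0409), which lost the call in 14 and 12 of the 16 fits that left out an array.

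Markers of other cell types were examined because each sample was bulk liver RNA, in which fewer cells of a type and less RNA per cell cannot be told apart. Of 11 hepatocyte markers none passed the difference in limma's test (3 higher and 1 lower at an unadjusted p under 0.05; 1 with the deposited values), and the log2 of their summed level was 12.00 to 12.25 and 12.10 to 12.18 on full NTBC in Fah-/- and Fah-/- p53-/- mice and 11.40 to 11.53 and 11.38 to 11.63 on reduced NTBC. Of 17 macrophage markers none passed (0 higher and 1 lower at an unadjusted p under 0.05; 0 with the deposited values), and the ranges in the 4 groups, in the order used above, were 6.16 to 6.79, 6.36 to 6.76, 6.62 to 7.01 and 6.40 to 7.12. No bile duct, neutrophil, B or erythroid marker passed, with none at an unadjusted p under 0.05 and none with the deposited values.

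Of 12 T and NK cell markers 2 (16.7%, beside 6.74% of all features) were more positive. Cd3e, a subunit of the T cell receptor complex, read -1.14, -1.08, -1.11 and -1.23 on full and -2.59, -2.66, -2.12 and -1.96 on reduced NTBC in Fah-/- mice, and -1.07, -0.96, -1.26 and -1.32 on full and -0.97, -0.91, -1.28 and -1.20 on reduced NTBC in Fah-/- p53-/- mice. It was thus low in Fah-/- mice on reduced NTBC alone, with a difference of 1.26 (SE 0.19, adjusted p = 0.000296). Cd4 followed (0.93, SE 0.24, adjusted p = 0.0148), but turned to -0.40 with normexp (adjusted p = 0.582), and Cd3e was not called there (adjusted p = 0.353). The summed level of the 12 markers was 0.64 to 1.28, 0.47 to 0.80, 1.19 to 1.54 and 0.82 to 1.82 in the order used above; Fah-/- on reduced NTBC lay below both Fah-/- p53-/- groups and overlapped Fah-/- on full NTBC. In that last group 1 of the 12 was above background on no array, and in the others none. Of 18 endothelial markers 2 (11.1%, beside 3.64% of all features) were more negative, Pecam1 (-0.66, adjusted p = 0.0291) and Ptprb (-0.44, adjusted p = 0.0461). Their calls were lost in 7 and 12 of the 16 fits that left out an array. The summed level of the 18 markers was 6.08 to 6.43 in Fah-/- p53-/- mice on reduced NTBC and 6.49 to 6.79 elsewhere. Of 17 stellate cell and fibroblast markers 1 (5.88%, beside 6.74% of all features) was more positive, Acta2 (0.67, adjusted p = 0.031). Its 3 probes ran from -0.21 to 1.06, and the call was lost with the deposited values, with normexp, with quantile normalization, with the mean of the probes and in 6 of the 16 fits that left out an array. The part of these cell types in the differences above was not tested.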

How the data were processed

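Each of 28 arrays, 4 in each of 7 groups, held liver RNA labelled with Cy3. Per the file headers, spots were read with Agilent Feature Extraction 10.7.3.1 (10.5 per the submitters' processing notes; probe design on mm9), which gave the deposited processed intensity and median intensities; the deposited 0/1 spot flags are other values. The authors' value table holds quantile-normalized log2 values, as their distributions show. After 1639 control and 100 uneven spots were left out, 41174 probes were scaled to the array's 75th percentile. The 27506 well above background on all 4 arrays of a group gave 20300 features (brightest probe per gene; 14571 with a RefSeq symbol). Limma 3.58.1 in R 4.3.3 fitted 7 group means with 21 residual degrees of freedom; p-values were adjusted by Benjamini and Hochberg and called at 0.05. The 4 arrays a group limit precision. The comparison, gene lists and named genes were chosen with earlier results of these data known. Genes could be named if among the 20 largest differences each way that also passed with the deposited values, the 10 largest of a pattern, the 15 largest each way with normexp, targeted genes, list members (up to 8 called, and others to show the spread) or cell type markers. Alternatives were normexp (on median intensities, offset 50), quantile normalization, deposited values, other filters and probe rules, the 16 arrays alone, trended robust variances, replicate number or slide as a block, a 2-fold minimum and leaving out each array. In data simulated for the difference of differences over 20300 features, 44 of 100 genes changed by a log2 of 1, 83 of 100 changed by 2 and 12 of 20100 unchanged were called. Values of some single genes are not reported here.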

Additional observations from a re-analysis of the deposited data

Results flagged for a closer look

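Of 556 combinations of a named gene and a group of 4 arrays, 26 had 1 array far from the other 3 by Dixon's test at the usual level; chance gives about a twentieth. No explanation was tested. Arrays of Fah-/- on full NTBC set apart included Slc30a1 at 1.10 on replicate 2 (others 1.38 to 1.43) and Peg3 at -3.67 on replicate 2 (others -4.21 to -4.20). This group also held Afp at 0.86 on replicate 4 (others 1.32 to 1.40) and Cyb561 at -2.16 on replicate 2 (others -2.65 to -2.65). Further ones were Cyp2g1 at -1.20 on replicate 1 (others -0.41 to -0.28) and Ift57 at -0.039 on replicate 1 (others 0.19 to 0.22). Further ones were Alb at 10.23 on replicate 3 (others 10.54 to 10.58) and Ccn2 at 0.25 on replicate 2 (others 0.82 to 0.88). Further ones were Dct at 3.54 on replicate 3 (others 4.05 to 4.13) and Ccnb1 at -5.61 on replicate 3 (others -6.57 to -6.42). Arrays of Fah-/- on reduced NTBC set apart included Slc30a1 at 1.81 on replicate 1 (others 1.21 to 1.29) and Selenbp2 at 8.82 on replicate 2 (others 8.30 to 8.36). This group also held Fah at 0.021 on replicate 4 (others -0.10 to -0.085) and Cyp39a1 at 2.62 on replicate 2 (others 3.29 to 3.36). Further ones were Bcl2l11 at 1.91 on replicate 1 (others 0.80 to 0.96). Arrays of Fah-/- p53-/- on full NTBC set apart included Cyp2b9 at -1.13 on replicate 2 (others 6.48 to 6.61) and Pdk1 at 2.31 on replicate 3 (others 2.78 to 2.85). This group also held Slc22a29 at 0.56 on replicate 4 (others 1.97 to 2.06) and Nnat at -7.0 on replicate 4 (others -6.42 to -6.30). Arrays of Fah-/- p53-/- on reduced NTBC set apart included Bcl6 at 2.19 on replicate 1 (others 1.65 to 1.67) and Cfd at -1.47 on replicate 2 (others -4.71 to -4.20). This group also held Mcm7 at 1.75 on replicate 1 (others 2.36 to 2.39) and Aox3 at 2.19 on replicate 4 (others 2.37 to 2.38). Further ones were Fah at -1.47 on replicate 1 (others -0.89 to -0.81) and Cyp4a12b at 5.07 on replicate 4 (others 4.15 to 4.27). Further ones were Neto1 at -2.92 on replicate 1 (others -2.44 to -2.40).

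The response to reduced NTBC differed between genotypes for 2106 features by limma's test of the difference itself. Among the genes named, 10 passed in each genotype with opposite signs. Their differences of differences were -4.76 for Mt1, -5.44 for Mt2, 3.88 for Gadd45g, 1.54 for Gstp1, -4.16 for Slco1a4. For the rest they were -1.16 for Fmo2, 2.99 for Carmil1, -2.29 for Vldlr, 1.13 for Rfc3 and 1.27 for Cspg5.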

How the results depend on the processing

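The count of 2106 became 78 with normexp and the 75th percentile and 39 with a minimum change of 2-fold, and 1400 to 2306 when an array was left out, lowest without replicate 2 of Fah-/- on reduced NTBC; under the other alternatives it was 1479 to 2758. Reduced against full NTBC in Fah-/- mice gave 8071, 2002 with normexp, 393 with the 2-fold minimum and 6579 to 8144 with an array left out. In Fah-/- p53-/- mice it gave 8086, 12236 without the filter on dim probes, 254 with the minimum and 6830 to 8058 with an array left out. Loss of p53 on full NTBC gave 2828, 159 with the minimum and 2064 to 2820 with an array left out. On reduced NTBC it gave 3172, 221 with normexp, 2104 with the deposited values, 6517 without the filter, 2053 with probes above background on all 28 arrays, 44 with the minimum and 2213 to 3230 with an array left out. The cause was not tested, except that fewer probes were tested under the stricter filter and more without one. The positive share of the 2106 was 65%, 75.6% with normexp, 55.8% with probes above background on all 28 arrays, 59.5% with normexp and quantile normalization and 60.4% with the deposited values. The replicate number as a block gave 2220 and changed no count above by more than 1.5 times. The samples share only a number: same-numbered arrays of different groups correlated with a median of -0.00147 in their deviations, 4 of 24 pairs over 0.1, and 3 of 16 arrays were closest to one of their own number. Slide as a random block gave 1703. Each of the 4 groups filled a slide of its own, so that fit cannot separate slide from group. Of the 98 named genes that passed, 71 passed in all 16 fits with an array left out, 59 lost the call with normexp and 8 turned sign there, and 17 lost it with the deposited values. With normexp the sign turned for Cd4 (-0.40), Il6 (-0.68), Fosb (-0.53), Hspa1b (-0.26), Cspg5 (-0.28), Slc39a10 (-0.59), Nnat (-0.84) and Scara5 (-0.10). With 4 arrays a group, in simulation 44 of 100 changes of a log2 of 1 were called.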

Other observations

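A few genes outside the groups described above had large differences. Ly6k, a surface protein of the Ly6 family, read 0.75, -1.46, -2.86 and -0.67 in Fah-/- mice on reduced NTBC and -3.31, -2.77, -3.34 and -4.13 in Fah-/- p53-/- mice on reduced NTBC, a difference of -4.03 (SE 0.92, adjusted p = 0.0074); 2 of 4 arrays of Fah-/- mice on full NTBC measured it above background. Serpina9, a protease inhibitor, and Scara5, a ferritin receptor, were highest in Fah-/- mice on full NTBC. On full NTBC they were at least 15.7-fold and 5.66-fold higher with p53 than without. Scara5 turned sign with normexp. Bmp6, a liver iron signal, rose without p53 by 1.30 and had a response of 0.055 with it (difference 1.25, SE 0.30, adjusted p = 0.0106), but its second probe gave 0.18 and the call was lost with the mean of a gene's probes. Hspa1b, a heat shock protein, rose without p53 by 1.75 against a response of 0.28 with it, a call not made with the deposited values (adjusted p = 0.0535) or with the mean of its probes. Several lists had few calls: 2 of 34 urea cycle and amino acid catabolism genes (5.88%, Ftcd and Gpt2, more negative) and 2 of 26 of the ATF4 stress response (7.69%, Vldlr and Slc7a1, more negative). Over all features 10.4% were called, and 3.64% were more negative. The 2 probes of Slc7a1 went opposite ways, -2.04 and 1.23, and its call was lost with the mean of a gene's probes. None of 27 interferon genes passed limma's test (0 higher and 3 lower at an unadjusted p under 0.05; 0 with the deposited values), nor of 17 pericentral genes (0 at that level; 0 with the deposited values), nor of 21 chaperones of the endoplasmic reticulum (3 higher and 1 lower; 1 with the deposited values). Cyp39a1, a bile acid enzyme, rose in both genotypes and less without p53 (2.36 and 1.11; difference -1.25, SE 0.34, adjusted p = 0.0198).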
